A study of Mus musculus with 40 samples.

Results

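The proteasome subunit genes were taken as all genes of the deposited expression table whose symbol is Psma, Psmb, Psmc, Psmd or Psme followed by a digit, and 41 of the 11450 genes met this rule. Each of the 41 was at 1 RPKM or more in every library, where RPKM is a read number divided by the gene's length and by the library's size. All were therefore tested, and each matched 1 gene of the mouse annotation, on 15 chromosomes. They were 7 genes of the alpha ring, 4 structural and 3 catalytic genes of the beta rings, 3 immunoproteasome genes, 6 ATPases, 11 other base and lid subunits, 3 assembly factors and 4 activators. Psma8, Psmb11 and Psme2b were not analysed here.

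Adult C57BL/6 mice, an inbred laboratory strain, had the left anterior descending coronary artery tied off permanently, which starves part of the left ventricle of blood and leaves a scar. From each heart 1 library was made from the scar, called the injured region, and 1 from a remote region, called uninjured, on day 3, 7, 14, 21 or 42 after the operation, with 4 mice per day, 20 mice and 40 libraries in all. Every group carried the ligation, so the uninjured region is remote tissue of an infarcted heart and no unoperated heart was compared. Mice carry the labels A4, A5, A7 and A8 on day 3, A7, A9, A10 and A12 on day 7, A4, A5, A6 and A11 on day 14, A3, A4, A10 and A11 on day 21, and B1, B3, B9 and B12 on day 42, and values below follow that order. The same label on different days marks different animals, and day 42 and the change of labels from A to B cannot be told apart.

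The proteasome is the barrel-shaped protease that breaks down proteins marked with ubiquitin. Its core particle is a stack of rings: outer alpha rings gate the entry, and inner beta rings carry the active sites of Psmb5 (chymotrypsin-like), Psmb6 (caspase-like) and Psmb7 (trypsin-like). The regulatory particle caps the core, where a ring of Psmc ATPases unfolds the substrate and the Psmd subunits bind ubiquitin, remove it and hold the cap together. Psme genes encode other caps that open the core without ATP. Under interferon gamma, and constitutively in many leukocytes, Psmb8, Psmb9 and Psmb10 take the places of Psmb5, Psmb6 and Psmb7 in newly built immunoproteasomes, which favour peptides for MHC class I. In the heart the proteasome turns over damaged and sarcomeric proteins. The transcription factor Nfe2l1 raises many proteasome subunit genes together through antioxidant response elements.

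RefSeq promoters, windows of 300 bases across the gene start in RefSeq, were at hand for 35 of the 41 genes (GRCm38.p6). For Psmb8 and Psme1 the window begins past the gene start of the GENCODE annotation, from which the gene positions below are taken. Promoters are shown for 4 genes that the results turn on, written 5′ to 3′ on the strand of the gene, with capitals marking a motif match on either strand. Psmb8 (chr17:34197945-34198244, plus strand) is shown for a GAS match, the interferon gamma motif TTCNNNGAA, and Psme1 (chr14:55578244-55578543, plus strand) for a match to the interferon-stimulated response element core, which is GAAA, any 2 bases and GAAA. Psmb5 (chr14:54617946-54618245, minus strand) and Psme4 (chr11:30771525-30771824, plus strand) are shown for the antioxidant response element core TGACNNNGC.
Psmb8: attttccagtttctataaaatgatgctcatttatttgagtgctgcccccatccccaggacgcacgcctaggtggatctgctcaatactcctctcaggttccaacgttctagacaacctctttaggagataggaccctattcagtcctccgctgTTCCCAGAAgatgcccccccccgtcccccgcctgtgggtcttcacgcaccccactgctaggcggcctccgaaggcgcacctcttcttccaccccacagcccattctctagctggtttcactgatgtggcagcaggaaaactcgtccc
Psme1: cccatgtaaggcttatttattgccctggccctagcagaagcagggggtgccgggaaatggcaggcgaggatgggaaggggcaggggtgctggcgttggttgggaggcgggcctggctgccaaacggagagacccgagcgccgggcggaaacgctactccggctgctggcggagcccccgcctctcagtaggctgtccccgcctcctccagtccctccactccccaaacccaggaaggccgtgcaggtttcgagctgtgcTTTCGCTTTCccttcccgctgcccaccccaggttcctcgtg
Psmb5: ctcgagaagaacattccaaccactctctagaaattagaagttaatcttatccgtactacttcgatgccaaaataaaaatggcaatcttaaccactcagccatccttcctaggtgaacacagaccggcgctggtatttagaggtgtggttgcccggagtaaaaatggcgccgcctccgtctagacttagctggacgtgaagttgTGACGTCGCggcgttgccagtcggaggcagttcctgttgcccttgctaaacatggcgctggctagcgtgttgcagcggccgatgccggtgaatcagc
Psme4: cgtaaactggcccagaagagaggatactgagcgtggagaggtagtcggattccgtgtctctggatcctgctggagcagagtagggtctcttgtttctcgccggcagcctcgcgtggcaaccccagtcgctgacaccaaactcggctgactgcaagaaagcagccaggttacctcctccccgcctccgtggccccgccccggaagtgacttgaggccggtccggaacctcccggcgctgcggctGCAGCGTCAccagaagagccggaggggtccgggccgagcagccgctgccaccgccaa
Both strands were searched, and matches of one motif may overlap those of another. The GAS letters were in 2 of the 35 promoters, Psmb8 and Psmd2, which is 5.71% against 8.15% of the 8596 genes of the table with a promoter. The response element core was in 4 (Psmb3, Psmd4, Psmd9 and Psme1), 11.4% against 3.86%. The antioxidant response element core was in 6 (Psmb5, Psmb6, Psmc6, Psmd12, Psmd9 and Psme4), 17.1% against 17.3%. The CCAAT box was in 13, or 37.1% against 42.4%. A match is a description of the letters and not a binding site.

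The deposited values gave back whole reads for 100% of the genes, which summed to between 12123945 and 33596397 per library. The 41 genes held a median of 1308 reads per gene and library, from 87 for Psmb9 to 26562 for Psme4. The regions differed in makeup. The summed RPKM of 10 cardiomyocyte markers lay between 682 and 5672 in injured and between 17890 and 29604 in uninjured libraries, with all 10 lower on every day. Of 14 leukocyte markers listed, the 10 in the table summed to 404 to 1862 in injured and 150 to 268 in uninjured libraries. They were called higher for 10, 9, 8, 8 and 8 on the 5 days. The 7 fibroblast markers summed to 991 to 4016 against 449 to 808, with 5 higher and 1 lower on day 3 and 7 higher later. The 6 endothelial markers summed to 84.6 to 220 against 161 to 221. On day 3 these endothelial sums were 183 to 220 against 171 to 186, with 2 markers higher and 2 lower, and on later days all 6 were lower. No marker in the table was at 0 in all libraries of a group. In tissue RNA, fewer cells of a type and less RNA per cell cannot be told apart, and the part of these shifts in the differences below was not tested.

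The level in the injured region depends on how libraries are scaled. The library sizes behind the deposited RPKM equal the recovered reads times a TMM factor (trimmed mean of M values, which assumes that most genes do not differ), to within a log2 gap of 5.94e-06, and the factors were 1.23 to 1.35 in injured and 0.702 to 0.881 in uninjured libraries. Reads of 10 mitochondrially encoded genes were 2.27% to 10.9% of the total in injured and 14.9% to 28.6% in uninjured libraries. With the deposited values the median gene differed between regions by 0.03 to 0.06 on the log2 scale over the 5 days, and 51.1% to 53.0% of all called genes were higher in the injured region. With libraries scaled to their total of recovered reads (total-read scaling) the median gene moved to between 0.59 and 0.68, and 76.7% to 81.0% of the called genes were higher. With libraries scaled to the same sum of RPKM (equal-sum scaling) the median gene moved to between 0.61 and 0.99, and 77.5% to 88.3% were higher. Directions below are therefore given for the deposited values, with the genes or groups for which these scalings turn them.

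Most proteasome genes were lower in the injured region on every day with the deposited values, and this order turned for many of them under total-read and equal-sum scaling. By limma on log2(RPKM + 1) with the mouse as a block (Benjamini-Hochberg adjusted p under 0.05 over the 11390 genes tested), 30 of 41 were lower on day 3 and 3 were higher, where 39.6% of all genes were lower and 44.1% higher. On day 7, 38 were lower and 1 higher (all genes 38.7% and 43.6%). On day 14, 39 were lower and 0 higher (40.5% and 42.4%), and on day 21 again 39 and 0 (41% and 43.1%). The unadjusted test at p under 0.05 also gave 0 higher on those days, as did limma's voom on the recovered reads, which kept the deposited library sizes. On day 42, 36 were lower and 1 higher (38.7% and 40.5%). Total-read scaling gave 3 lower and 24 higher on day 3, 18 and 8 on day 7, 22 and 7 on day 14, 24 and 8 on day 21, and 12 and 11 on day 42. Of all genes tested, 16.7% to 20.7% were then lower and 68.1% to 71.3% higher over the 5 days. Equal-sum scaling gave 3 lower and 19 higher, 4 and 21, 3 and 18, 4 and 18, and 1 and 25 on the 5 days in turn, where 10.6% to 19.3% of all genes were lower and 66.3% to 79.9% higher.

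The median log2 difference of the 41 was -0.50 on day 3, -0.76 on day 7, -0.99 on day 14, -1.06 on day 21 and -0.76 on day 42, beside 0.06, 0.05, 0.03, 0.03 and 0.03 over all genes. The distance to the median gene kept its sign under every scaling run, but most of these runs could hardly change it. A factor per library shifts the members and the median gene together, apart from the 1 added to each RPKM. Only quantile normalization could move the distance freely. The distance was 0.55 to 1.09 below with the deposited values (members' median minus that of all genes, -1.09 to -0.55). It was -0.97 to -0.42 under total-read scaling, -0.90 to -0.42 under equal-sum scaling and -0.55 to -0.14 after quantile normalization. The 6 scalings counted in this text are as deposited, quantile normalization, equal medians, total-read, equal-sum, and voom. Voom kept the deposited library sizes and equal medians stayed near the deposited scaling, so both add little to it. In each of the 6 scalings, 27, 38, 38, 40 and 37 of the 41 genes lay below the median gene on the 5 days in turn, and 26 did so on all 5 days. After quantile normalization by itself, 28 to 40 of the 41 lay below the median gene on a day.

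**Figure D1:**
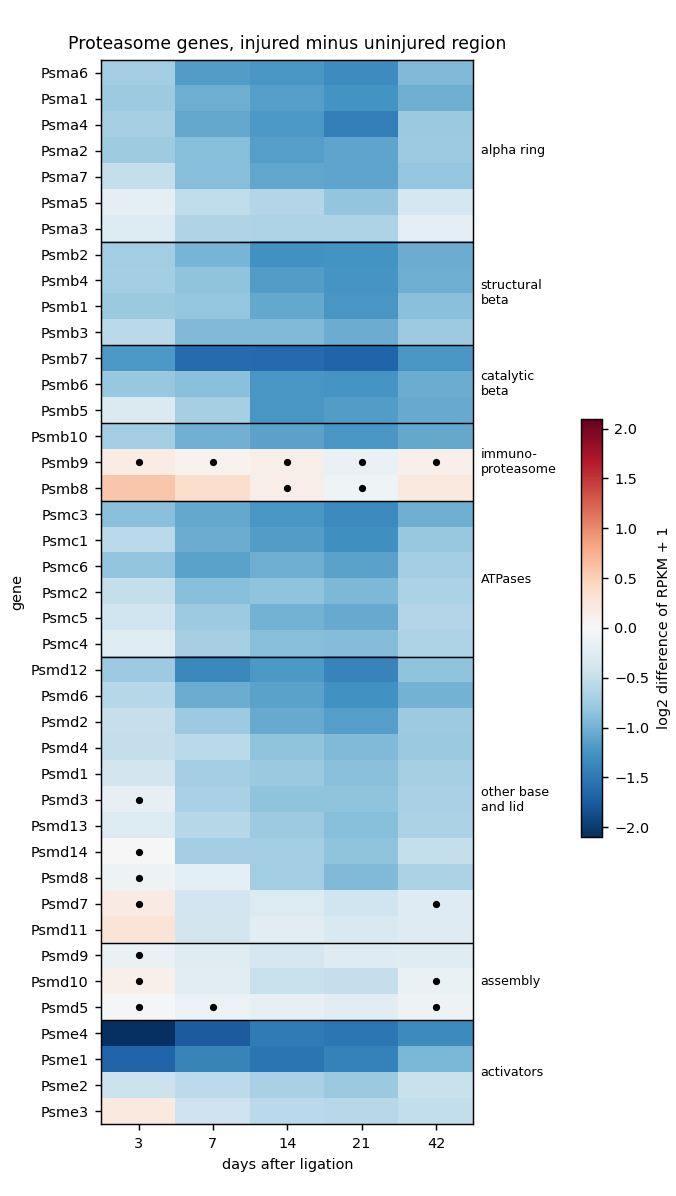
Log2 difference of RPKM + 1, injured minus uninjured region, for each of the 41 proteasome genes (rows, by role) on each day (columns), with the deposited scaling. A black dot marks a gene and day with no call by limma; blue, lower in the injured region, fills most cells with the deposited scaling, and total-read and equal-sum scaling shift all cells of a day upwards together, which turns many of them.

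Per library, the injured values of 28 genes lay wholly below the uninjured ones on day 3, where 37.3% of all genes did so with the deposited scaling. The counts were 34 on day 7 (33.9%), 38 on day 14 (37.3%), 39 on day 21 (38.3%) and 35 on day 42 (35.1%). Wholly above lay Psme3 and Psmb8 on day 3 (41.3% of all genes) and Psmb8 on day 7 (38.1%) and day 42 (35.7%), and 0 genes on days 14 and 21 (38.8% and 39.9%). Of the 41, 30 were called lower on all 5 days (28.8% of all genes), and for 21 all 20 injured libraries lay below all 20 uninjured ones (20.7%), while 0 were called higher on all 5 days (28.6%) or lay wholly above over all 20 (16.3%) with the deposited scaling. The proteasome genes held 0.244% to 0.333% of the recovered reads of injured libraries and 0.287% to 0.369% of those of uninjured libraries. Of the reads that were not mitochondrially encoded they held 0.253% to 0.365% and 0.373% to 0.487%, ranges that did not overlap. Psme4 weighs heavily in these shares. It alone held 4549 to 26562 reads per library, where all 41 genes held 29523 to 107648. Whether the ranges stay apart without Psme4 was not tested.

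**Figure D2:**
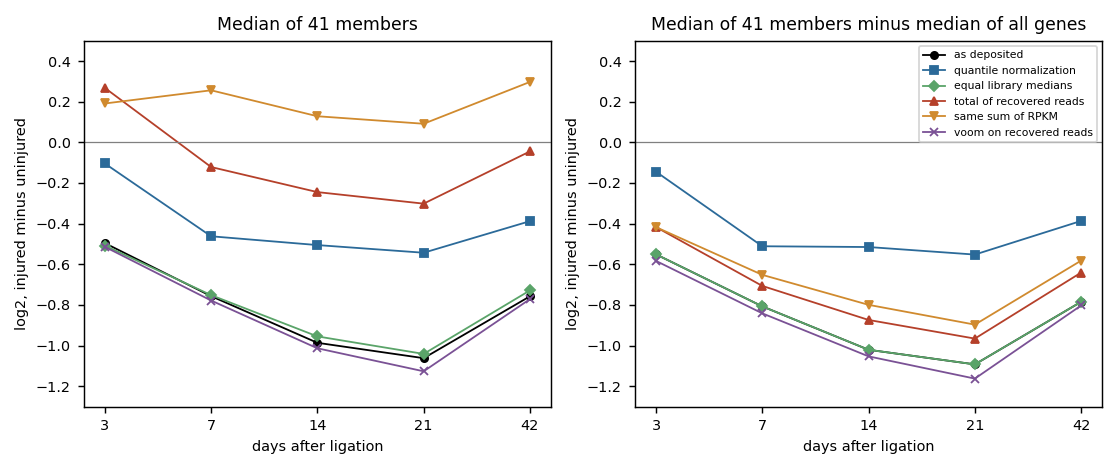
Median log2 difference between regions of the 41 proteasome genes by day under 6 scalings of the libraries, as such (left) and minus the median of all genes tested (right). On the left the total-read and equal-sum lines lie above the others and reach above 0, while on the right every line lies below 0 on every day. A factor per library shifts members and all genes together and voom kept the deposited library sizes, so on the right only quantile normalization could differ much.

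The 14 genes of the constitutive core particle were all called lower in the injured region on every day with the deposited values, with a median log2 difference of -0.72, -0.89, -1.16, -1.23 and -0.90 on days 3, 7, 14, 21 and 42. For the 7 alpha ring genes, which form the gate, the medians were -0.69, -0.89, -1.15, -1.11 and -0.77. Under total-read scaling 3 alpha genes were called higher and 0 lower on day 3, and 0 and 5 on days 7, 14 and 21. Psma6 had the lowest mean over the days of the alpha genes. On day 21 its injured libraries held 26.7, 25.3, 24.9 and 32.7 RPKM and its uninjured libraries 72.5, 77.0, 67.2 and 62.5. No injured value reached an uninjured one, and the log2 difference was -1.32 ± 0.08 (standard error, adjusted p 5.05e-12), -0.54 under total-read scaling and -0.13, without a call, under equal-sum scaling. Psma3 had the highest mean of the ring: -0.29 on day 3, -0.66 on day 21 and -0.20 on day 42, and it was above 0 on all 5 days under equal-sum scaling (0.35 to 0.81). Its call on day 42 (adjusted p 0.0279) was lost without mouse B1, B3 or B9.

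Among the structural beta genes, which shape the inner rings without an active site, Psmb2 was lowest and Psmb3 highest on average. Psmb2 on day 14 was at 28.2, 29.3, 30.9 and 29.3 RPKM in the injured and 72.6, 76.7, 76.2 and 65.8 in the uninjured libraries. The groups lay far apart, with a log2 difference of -1.28 ± 0.08 (adjusted p 5.04e-12) that was -0.53 under total-read and -0.16, with no call, under equal-sum scaling. Psmb3 differed by -0.56, -0.93, -0.93, -1.04 and -0.76 on the 5 days with the deposited values and by 0.02 to 0.22, with no call, under equal-sum scaling.

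The 3 catalytic genes carry the constitutive active sites. Psmb7 on day 3 was at 15.9, 17.0, 16.4 and 16.9 RPKM in injured and 39.8, 40.9, 39.3 and 37.7 RPKM in uninjured libraries, and on day 21 at 11.9, 10.5, 11.7 and 13.3 against 43.0, 45.5, 39.0 and 34.2. The groups did not overlap on any day. Its log2 differences were -1.20, -1.62, -1.63, -1.69 and -1.22 (standard error 0.08), and it stayed lower under all 6 scalings on days 3 to 21, while on day 42 equal-sum scaling left -0.19 (adjusted p 0.0981). Psmb7 shares 405 exon bases with Nek6 on the opposite strand, and the strand setting of the counting is not given in the sources used here. Psmb6 was at 32, 41, 39.3 and 35.4 RPKM in injured and 59.6, 70, 62.8 and 66.2 RPKM in uninjured libraries on day 3. Its differences of -0.80, -0.88, -1.23, -1.24 and -1.04 (standard error 0.10) were all called with the deposited values, while equal-sum scaling gave -0.11 to 0.13 and no call.

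Psmb5 differed least on day 3. Its injured libraries then held 12, 12.8, 12.7 and 12.6 RPKM and its uninjured ones 11.5, 17.5, 15.2 and 19.6. The groups overlapped through mouse A4, and the call (-0.31 ± 0.12, adjusted p 0.0245) was lost without mouse A5 or A8 and turned to 0.43 under total-read and 0.36 under equal-sum scaling. On day 14 the same gene was at 5.83, 7.32, 10 and 8.28 RPKM against 15.8, 17.5, 21.9 and 23.1. These groups did not overlap. The differences on days 7 to 42 were -0.70, -1.22, -1.17 and -1.06 with the deposited values, and equal-sum scaling turned day 7 to 0.26 and ended the calls of days 14 to 42.

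**Figure D3:**
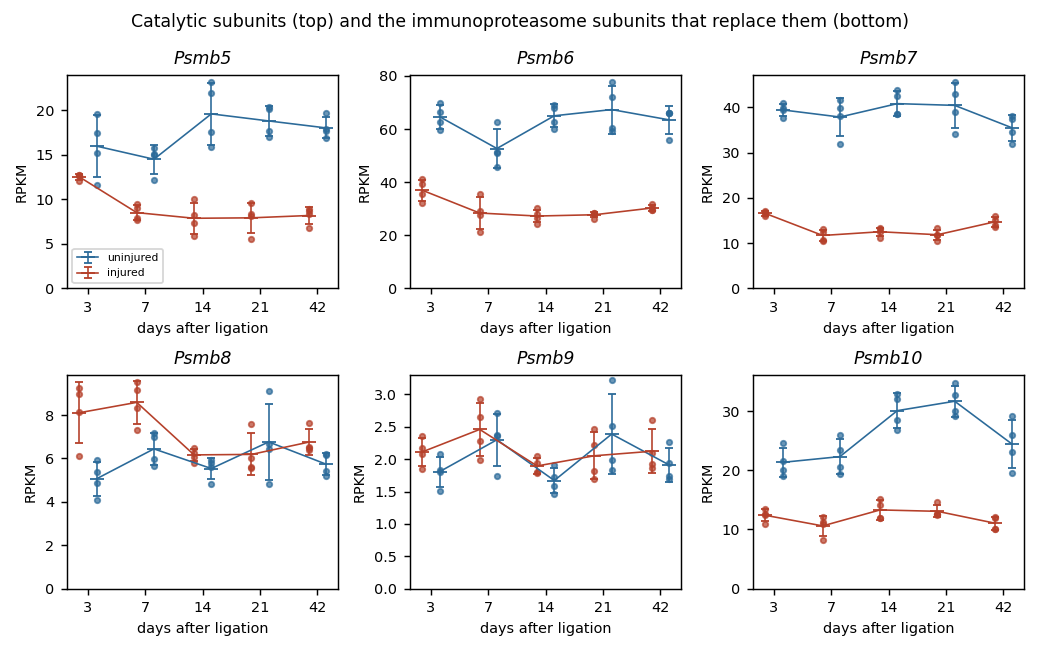
RPKM per library by day of the catalytic genes Psmb5, Psmb6 and Psmb7 (top) and of the immunoproteasome genes Psmb8, Psmb9 and Psmb10 that replace them (bottom); points are libraries of the injured and uninjured region, lines join the means and bars are SD (n = 4). With the deposited scaling injured points lie below uninjured ones for Psmb5 from day 7, Psmb6, Psmb7 and Psmb10 but not for Psmb8 and Psmb9, and under equal-sum scaling Psmb7 alone of the genes shown keeps its lower calls, on days 3 to 21.

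Of the immunoproteasome genes, Psmb8 was called higher in the injured region on days 3, 7 and 42 under all 6 scalings. Its day 42 call was lost in other runs given below. Psmb9 passed the test on no day with the deposited values, and Psmb10 was lower on every day with the deposited values. Psmb8 (chr17:34197721-34201454, mm10, plus strand) on day 3 was at 6.11, 8.96, 9.23 and 8.14 RPKM in injured and 4.07, 4.87, 5.36 and 5.95 in uninjured libraries. Every injured value lay above every uninjured one, and the log2 difference was 0.58 ± 0.08 (adjusted p 1.07e-06). On day 7 the values were 7.30, 8.33, 9.53 and 9.18 against 7.15, 5.64, 5.99 and 6.98, a difference of 0.36 (adjusted p 0.000337). The groups overlapped on day 14 (0.14, adjusted p 0.129) and on day 21 (-0.09, adjusted p 0.293), where total-read scaling gave 0.78 and 0.60 and equal-sum scaling 1.11 and 0.96. On day 42 the values were 6.48, 7.63, 6.52 and 6.38 against 5.21, 6.14, 6.18 and 5.40. The groups were again apart, by 0.20 (adjusted p 0.0279), a call lost without the mouse block and without mouse B1, B3 or B12. Summed leukocyte markers were 859 to 1303 in the injured libraries of day 3, 1164 to 1862 on day 7 and 404 to 701 from day 14 on, and their part in the levels of Psmb8 was not tested. Psmb8 overlaps the antisense gene Gm20496 by 498 exon bases.

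Psmb9 (chr17:34181987-34187764, minus strand) was the lowest of the 41 genes in the uninjured region. Its injured and uninjured means were 2.11 and 1.81 RPKM on day 3, 2.46 and 2.30 on day 7, 1.89 and 1.67 on day 14, 2.05 and 2.39 on day 21, and 2.12 and 1.91 on day 42. The groups overlapped on every day, and the log2 differences of 0.15, 0.07, 0.12, -0.14 and 0.10 had adjusted p of 0.0621, 0.386, 0.138, 0.0816 and 0.219. Total-read scaling (0.41 to 0.67) and equal-sum scaling (0.60 to 0.84) called it higher on every day, and quantile normalization called it lower on days 14, 21 and 42. It overlaps Tap1, the peptide transporter of MHC class I loading, by 212 exon bases on the opposite strand.

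Psmb10 (chr8:105935735-105938444, minus strand) followed the constitutive genes with the deposited values. On day 3 it was at 11, 12.6, 13.5 and 12.5 RPKM in injured and 19.1, 24.7, 21.6 and 20.1 RPKM in uninjured libraries, and on day 21 at 12.6, 12.4, 12.7 and 14.6 against 30.0, 34.9, 32.8 and 29.2. Injured values lay below uninjured ones in each mouse on each day, by -0.74, -1.01, -1.12, -1.22 and -1.07 (standard error 0.12, adjusted p at most 6.16e-06), and under equal-sum scaling the differences were -0.06 to -0.03 with no call.

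The ratio of an immunoproteasome gene to the subunit it replaces is left as it is by any factor applied to a whole library. A higher ratio can come from either gene. With the deposited values, mean log2 differences over the days were -0.89, -1.04 and -1.47 for Psmb5, Psmb6 and Psmb7. They were 0.24, 0.06 and -1.03 for Psmb8, Psmb9 and Psmb10. The median gene lay at 0.03 to 0.06, so a gene near it would also have a higher ratio to Psmb5, Psmb6 or Psmb7. Ratios of other genes to these subunits were not tested. Relative to Psmb5, Psmb8 was higher in the injured region of 20 of 20 mice. The mean Psmb8/Psmb5 ratio was 0.646 in injured and 0.322 in uninjured libraries on day 3, 1.01 and 0.452 on day 7, 0.82 and 0.292 on day 14, 0.838 and 0.358 on day 21, and 0.835 and 0.318 on day 42. On the log2 scale the difference was 1.24 ± 0.328 (SD, n = 20), with an adjusted p of 4.5e-05 in a two-sided sign-flip permutation test, where 9 tests of this family were adjusted together and the raw p of 1e-05 was the smallest that 100000 resamples can give. Psmb9/Psmb6 was higher by 1.16 ± 0.289, also in 20 of 20 mice and with the same adjusted p. The mean differences by day were 1.0, 1.18, 1.49, 1.17 and 1.38 for Psmb8/Psmb5 and 1.04, 1.01, 1.45, 1.07 and 1.22 for Psmb9/Psmb6.

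Psmb10/Psmb7 differed less. It was higher in the injured region by 0.45 ± 0.261 in 19 of 20 mice (adjusted p 9e-05, permutation test as above), by 0.47, 0.62, 0.53 and 0.49 on days 3 to 21 and by 0.14 ± 0.308 on day 42, where mouse B12 lay at -0.29. Between day 3 and day 21 this ratio differed by 0.57 in the injured and by 0.54 in the uninjured region (exact permutation test, two-sided p 0.0286, the smallest that 4 against 4 allows, adjusted p 0.0514). The other 4 comparisons of day 21 with day 3 had adjusted p between 0.0857 and 0.429, by the same exact test.

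**Figure D4:**
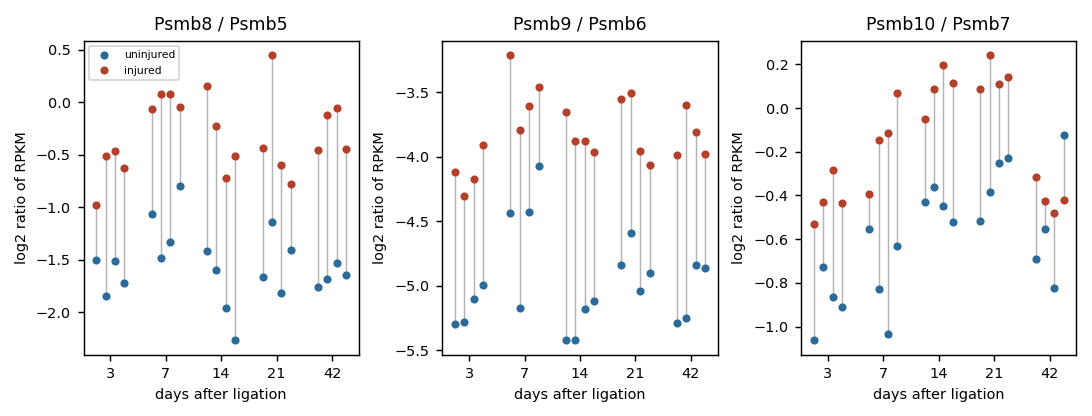
Log2 ratio of Psmb8 to Psmb5, Psmb9 to Psmb6 and Psmb10 to Psmb7 in each of 20 mice by day, with the injured and the uninjured library of a mouse joined by a line. The injured library has the higher ratio in 20 of 20, 20 of 20 and 19 of 20 mice, and a ratio within a library is the same under each scaling by 1 factor per library.

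The 17 ATPase and non-ATPase genes of the regulatory particle had medians of -0.41, -0.72, -0.85, -0.93 and -0.68 with the deposited values, each closer to 0 than that of the core, a difference between gene groups that was not tested. All 6 ATPase genes were called lower on every day with the deposited values, and equal-sum scaling called none lower on any day. Psmc3 had the lowest mean: on day 21 it was at 32.5, 31.2, 32.8 and 36.1 RPKM in injured and 94.1, 90.3, 79.1 and 76.6 in uninjured libraries. These did not overlap, and the difference was -1.33 ± 0.09 with the deposited values, -0.54 under total-read scaling and -0.13, with no call, under equal-sum scaling. Psmc3 shares 215 exon bases with Slc39a13 on the opposite strand, and among the other regulatory genes Psmd13 shares 342 with Sirt3 and Psmd1 shares 252 with Htr2b. Psmc4 had the highest mean, with -0.26, -0.70, -0.89, -0.91 and -0.65 on the 5 days and 0.21 to 0.43 under equal-sum scaling.

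Of the 11 non-ATPase genes of the base and lid, 6 were lower and 1 higher on day 3, 11 were lower on each of days 7, 14 and 21, and 10 on day 42 with the deposited values, while equal-sum scaling called at most 1 lower and 7 to 9 higher on each day. Psmd12, a scaffold subunit of the lid, had the lowest mean. On day 7 it was at 14.8, 14.9, 14.8 and 16.9 RPKM in injured and 38.4, 45.1, 43.6 and 37.0 in uninjured libraries. No values overlapped, and the difference of -1.36 ± 0.12 remained called under all 6 scalings on days 7 and 21, at -0.36 and -0.22 under equal-sum scaling.

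Psmd11, a lid subunit that helps join the lid to the base, was called in opposite directions on different days with the deposited values, as 9.9% of all genes were. On day 3 its injured libraries held 12, 11.3, 11.5 and 10.6 RPKM and its uninjured ones 10.9, 9.27, 8.58 and 8.54. The groups overlapped by the lowest injured library, and the difference of 0.26 ± 0.07 (adjusted p 0.00151) was called higher under all 6 scalings. On day 7 the values were 6.13, 5.59, 5.76 and 6.75 against 7.72, 8.23, 8.58 and 8.13. Now every injured value lay below every uninjured one, by -0.38, with -0.23, -0.31 and -0.27 on the later days, but total-read and equal-sum scaling called it higher on these 4 days too.

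Psmd14 and Psmd8 were near equal between the regions on day 3 and lower later with the deposited values. Psmd14, the lid enzyme that cuts ubiquitin off the substrate, was at 20.4, 21.9, 21.0 and 20.9 RPKM in injured and 21.0, 22.0, 22.4 and 18.7 in uninjured libraries on day 3 (0.01, adjusted p 0.916), and at 15.4, 14.1, 14.9 and 12.5 against 24.4, 23.5, 25.8 and 22.6 on day 7. The groups overlapped on day 3 and not on day 7, where the difference was -0.72 ± 0.07, followed by -0.73, -0.84 and -0.50, and equal-sum scaling turned all of these to between 0.27 and 0.53. Psmd8 differed by -0.10 and -0.20 on days 3 and 7, and then by -0.74, -0.93 and -0.66 with the deposited values, against 0.25 to 0.82 on the 5 days under equal-sum scaling. Its day 7 call (adjusted p 0.0286) was lost without mouse A7 or A9.

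The 3 assembly factors among the 41 genes, Psmd5, Psmd9 and Psmd10, chaperone the building of the ATPase ring and are not part of the finished particle. Their median differences were -0.02, -0.22, -0.36, -0.27 and -0.14 on the 5 days, and 0, 2, 3, 3 and 1 of them were called lower with the deposited values, whereas equal-sum scaling called all 3 higher on every day. Psmd5 was at 3.48, 3.44, 3.98 and 3.29 RPKM in injured and 3.38, 3.68, 3.74 and 3.64 in uninjured libraries on day 3. The groups overlapped. With the deposited values, Psmd5 was called on days 14 (-0.18, lost without mouse A5 or A6) and 21 (-0.24) and on no other day. Quantile normalization called it lower on all 5 days (-0.43 to -0.18). Psmd9 differed by -0.13 without a call on day 3 and by -0.26, -0.36, -0.27 and -0.26 later, and total-read and equal-sum scaling put it above 0 on all 5 days. Psmd9 overlaps the long noncoding gene Gm26745 by 1849 exon bases.

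An activator had the largest difference of the 41 genes on day 3. Psme4 (PA200, chr11:30771726-30880361, plus strand), the nuclear activator linked to acetylated histones and DNA repair, was at 26.2, 24.4, 20.5 and 29.3 RPKM in injured and 121, 101, 105 and 112 RPKM in uninjured libraries on day 3. The injured values lay 77.1% below the uninjured ones on average, with no overlap, and the difference was -2.09 ± 0.11 (adjusted p 9.21e-14). On day 42 the values were 51.7, 51.8, 44.5 and 44.5 against 136, 128, 111 and 115, with differences of -1.74, -1.49, -1.52 and -1.33 on days 7 to 42. Psme4 was the only one of the 41 called lower on all 5 days under all 6 scalings, from -2.14 to -1.32 on day 3 and from -1.35 to -0.27 on day 42, where equal-sum scaling gave an adjusted p of 0.0475.

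Psme1 (PA28 alpha, chr14:55578123-55581529, plus strand) forms with Psme2 (PA28 beta, chr14:55587441-55591113, minus strand) the interferon-inducible ring cap. Psme1 on day 3 was at 16.3, 20.3, 19.2 and 17.0 RPKM in injured and 65.7, 69.1, 55.5 and 53.3 in uninjured libraries. The groups lay far apart, by -1.69 ± 0.09, and by -1.40, -1.54, -1.42 and -0.95 on the later days, called under all 6 scalings on days 3, 7 and 14, while equal-sum scaling gave -0.23 and 0.09 without a call on days 21 and 42. Its partner Psme2 was at 12.5, 14.2, 14.3 and 14.1 against 16.1, 17.6, 21.8 and 21.4 RPKM on day 3. These groups too were apart, but by less: -0.44, -0.55, -0.69, -0.78 and -0.47 on the 5 days with the deposited values, and 0.22 to 0.52 under equal-sum scaling. In the uninjured region Psme1 was thus at 53.3 to 69.1 RPKM where Psme2 was at 16.1 to 21.8 on day 3. The gene before Psme1 on its strand, Fitm1, a lipid droplet gene of muscle, ends 1168 bases before the Psme1 gene. It was at 1.28 to 6.15 RPKM in injured and 55.3 to 115 in uninjured libraries, and a part of its transcripts in the Psme1 values was not tested.

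Psme3 (PA28 gamma, chr11:101316213-101323537, plus strand), the nuclear member of the family, was called in opposite directions like Psmd11. On day 3 it was at 16.8, 17.4, 16.4 and 15.5 RPKM in injured and 15.3, 14.8, 13.2 and 13.6 RPKM in uninjured libraries. The injured values all lay above the uninjured ones, by 0.20 ± 0.06 (adjusted p 0.00488), a call made under all 6 scalings. On day 7 they were 9.60, 9.72, 9.66 and 9.34 against 12.7, 14.4, 14.1 and 12.2. The order was now reversed without overlap, by -0.43, with -0.57, -0.59 and -0.51 on the later days, but total-read scaling (0.13 to 0.17) and equal-sum scaling (0.48 to 0.54) called Psme3 higher there.

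**Figure D5:**
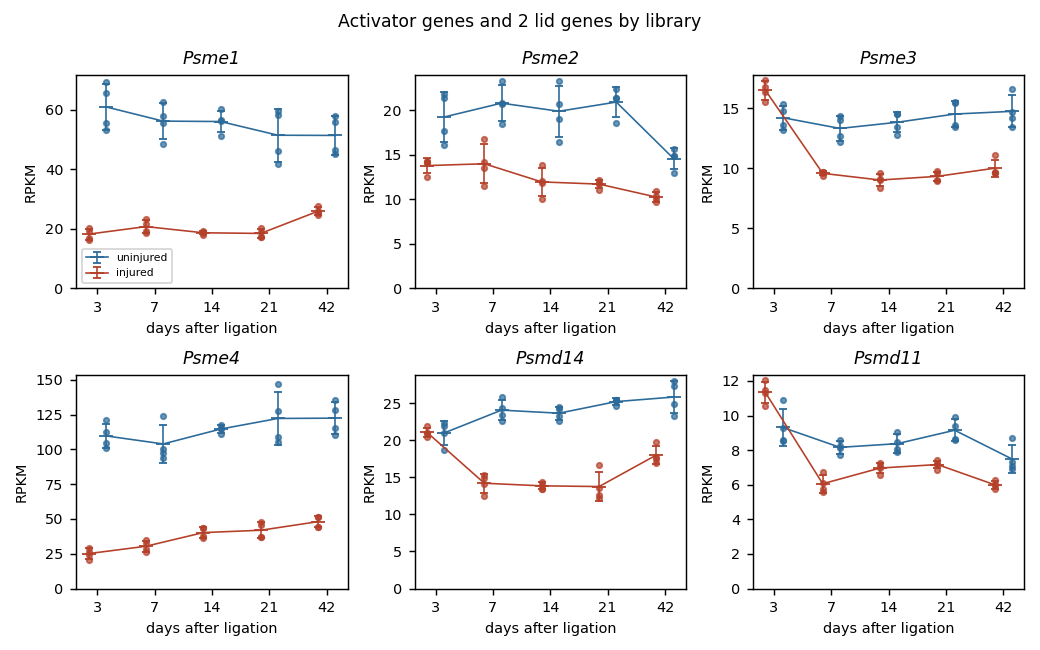
RPKM per library by day of the activators Psme1, Psme2, Psme3 and Psme4 and the lid genes Psmd14 and Psmd11, injured and uninjured region, with lines through the means and bars for SD (n = 4). Psme4 injured points lie below the uninjured ones on every day with the deposited scaling, and its calls held under all 6 scalings; Psme3 and, but for 1 library, Psmd11 injured points are the higher ones on day 3 and the lower ones later with the deposited scaling, an order that total-read and equal-sum scaling turn on the later days.

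The size of the region difference changed over the days for 36 of the 41 genes, where 74.3% of all genes tested changed (limma F test, adjusted p under 0.05). The smallest adjusted p were those of Psme3 (4.5e-07), Psmd14 (1.1e-06) and Psmd8 (8.11e-06). The 5 genes that did not pass were Psme2 (0.079), Psmb9 (0.0943), Psmb10 (0.102), Psmd5 (0.25) and Psmd9 (0.328). Under equal-sum scaling 6 of the 41 genes passed, and the share of all genes that passed under that scaling was not counted.

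Within the injured region 37 of the 41 changed over the days by the F test, against 87.6% of all genes, and the step from day 3 to day 7 had the most calls with the deposited values. In that step 27 genes fell and 0 rose by the deposited values, where 32.7% of all genes fell and 27.7% rose. The unadjusted limma test had 2 rises at p under 0.05, and voom called 1 rise and 27 falls. Equal-sum scaling gave 10 rises and 4 falls, and the shares of all genes in this step were counted with the deposited values only. Psmd11 fell by 0.81 ± 0.06 on the log2 scale, from a mean of 11.3 to 6.06 RPKM. Psmd3, a scaffold of the lid, fell by 0.75 (15.7 to 8.95 RPKM), Psme3 by 0.73 (16.5 to 9.58) and Psmd7, the partner of the deubiquitinase, by 0.73 (28.9 to 17.2). These 4 had the largest falls, and each kept its call in every alternative run, equal-sum scaling and left-out mice included. They were chosen after their values were seen.

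From day 7 to day 14, 4 genes rose in the injured region and 4 fell (all genes 21.9% and 21.2%). Psmc2, Psmb10, Psme4 and Psmd11 rose, with Psme4 going from 30.4 to 40.2 RPKM (0.40), and equal-sum scaling ended all 4 of these calls. The calls of Psmc2, Psmb10 and Psmd11 were also lost with 1 mouse left out, such as A7 of day 7 for Psmb10 and A9 of day 7 for Psmd11. Psmd10, Psmd8, Psmb9 and Psmb8 fell, Psmd8 from 35.6 to 25.7 RPKM (-0.44) and Psmb8 from 8.59 to 6.16 (-0.42), and these last 2 kept their calls in every alternative run. Psmd10 lost its call without mouse A10 of day 7 or A4 of day 14, and Psmb9 without A10 or A12 of day 7 or A4, A5 or A11 of day 14. From day 14 to day 21 no gene of the table was called (0% in both directions), limma gave none of the 41 an unadjusted p under 0.05, and voom called 0. From day 21 to day 42, 10 rose and 1 fell (11.2% and 13.6%), a step in which the animals also carry other labels. Psma4 rose from 14.1 to 24.2 RPKM (0.73), Psma3 from 9.07 to 13.8 (0.55), Psmc6 from 42.2 to 61.0 (0.53) and Psme1 from 18.4 to 25.9 (0.47), while Psmd11 fell from 7.17 to 6.00, a call that equal-sum scaling ended. The 4 rises kept their calls in every alternative run, as did the rises of Psmd14, Psma5, Psmd12 and Psmc1. The rise of Psmb7 lost its call under equal-sum scaling. That of Psma6 kept its call in 18 of 31 alternative runs, with losses under total-read and equal-sum scaling and with single mice left out.

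Within the uninjured region fewer genes moved, with 15 of 41 changed over the days (47.2% of all genes). From day 3 to day 7 Psmd14 rose and Psmd4 and Psmb6 fell (10.4% and 14.5% of all genes), and each of the 3 calls was lost with mouse A5 or mouse A8 of day 3 left out, while total-read scaling called 6 rises and 0 falls. From day 7 to day 14 Psmc3, Psmd4, Psmd13, Psmb10 and Psmb5 rose and 0 fell (7.49% and 5.56%), with Psmb10 going from 22.3 to 30.1 RPKM. The unadjusted limma test had 11 rises and 1 fall, voom called 5 rises and 0 falls, and total-read and equal-sum scaling called 0 rises and 1 fall each. All of these calls but that of Psmd4 were lost without mouse A12 of day 7. From day 14 to day 21 there were 0 calls (0.00878% rose and 0% fell), with 2 rises at an unadjusted p under 0.05 and 0 calls by voom. From day 21 to day 42, 10 fell and 0 rose (10.1% and 10.4%), among them Psme2 from 20.9 to 14.6 RPKM (-0.49), and the unadjusted test had 13 falls and 0 rises, as voom had 10 and 0. Total-read scaling kept 5 falls, and equal-sum scaling ended all 10 calls. The shares of all genes in these steps were counted with the deposited values only. Psmc2, Psme2, Psmc5 and Psmd2 kept their calls with any 1 mouse left out, and the other 6, Psmb4, Psmc4, Psmd13, Psmb10, Psmd11 and Psmb3, did not, with losses without mouse A3, A4, A10 or A11 of day 21 or B1, B3 or B9 of day 42.

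In the uninjured region the median RPKM, a level per gene length, ran from 114 for Psmb1 and for Psme4 and 93.6 for Psmc6 down to 5.86 for Psmb8, 3.75 for Psmd5, 2.31 for Psmd9 and 1.87 for Psmb9. Neighbours in this order overlapped in their libraries except below Psme3 (12.2 to 16.6 RPKM) and below Psmd5 (3.11 to 4.16). In the injured region the median of Psmb1 was 59.3 and that of Psme4 37.1, while Psmb8 was at 6.51 and Psmb9 at 2.06.

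Other genes of the pathway were read from 6 lists, beside the shares of all genes tested: 40.5% to 44.1% higher and 38.7% to 41% lower over the 5 days with the deposited values, 68.1% to 71.3% higher under total-read scaling and 66.3% to 79.9% higher under equal-sum scaling. The lower shares of all genes were 16.7% to 20.7% under total-read and 10.6% to 19.3% under equal-sum scaling. Of 9 other assembly and associated factors in the table, 7, 8, 8, 8 and 7 were lower and 0 higher on the 5 days with the deposited values. Total-read scaling called 2, 3, 6, 6 and 3 lower and 6, 2, 3, 3 and 3 higher. Equal-sum scaling called 3 to 5 higher and at most 2 lower. The lowest was Psmg2, a chaperone of the alpha ring, at -1.39 to -1.04 and below 0 under all 6 scalings, and the highest was Psmf1, an inhibitor of the core, at -0.16 to -0.02 and up to 0.80 under the other scalings. Of 15 ubiquitin and shuttle genes, 10, 12, 14, 14 and 12 were lower and 1 higher on each day with the deposited values. Under total-read scaling 1, 4, 4, 5 and 1 were lower and 10, 8, 9, 8 and 8 higher. Under equal-sum scaling 9 to 12 were higher and at most 2 lower. The 1 higher gene with the deposited values was Ubqln2, a shuttle that carries ubiquitinated proteins to the proteasome, at 0.79 to 1.24. It was called higher under all 6 scalings.

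Among the 11 regulators 6, 6, 5, 5 and 7 were higher and 4, 3, 3, 3 and 3 lower with the deposited values, and equal-sum scaling called 8 to 11 higher. The higher share of 45.5% on days 14 and 21 was near that of all genes. Nfe2l1 was at 40.4 ± 1.97 RPKM in injured and 113 ± 7.45 RPKM in uninjured libraries on day 3 (SD, n = 4) and at 68.0 ± 4.41 against 108 ± 10.8 on day 42. Its groups differed by -1.46, -1.21, -0.78, -0.78 and -0.65 with the deposited values and by up to 0.43 above 0 under the other scalings.

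All 6 genes of the list of muscle ubiquitin ligases were lower on days 3, 7, 21 and 42 and 5 on day 14 with the deposited values, and total-read and equal-sum scaling called 3 or 4 lower and 1 to 3 higher. Trim54 was lowest, at -2.56, -3.09, -2.25, -2.48 and -2.30 and below 0 under all 6 scalings, and Fbxo30 was highest, at -0.32 to -0.09 and up to 0.96 under the other scalings. Summed cardiomyocyte markers moved the same way, as given above, and their part in this was not tested.

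Of 15 genes of MHC class I antigen processing, 9, 7, 6, 7 and 7 were higher and 3, 4, 3, 4 and 3 lower with the deposited values, and equal-sum scaling called 14 or 15 higher. The higher share was 60% on day 3 and 40% to 46.7% later, which was near that of all genes. Pdia3, a chaperone of the peptide loading complex, was highest at 1.25, 1.22, 0.73, 0.61 and 0.78 and above 0 under all 6 scalings, and H2-Q6 was lowest at -0.97 to -0.30 and up to 0.33 under the other scalings. Of 11 interferon gamma response genes, 6, 7, 4, 4 and 6 were higher and 1, 1, 1, 2 and 1 lower, with 10 higher on each day under total-read and equal-sum scaling. The higher share of 36.4% on days 14 and 21 lay below that of all genes. Ciita, the master regulator of MHC class II genes, was highest at 1.15 to 1.57, and Ifngr2, a chain of the interferon gamma receptor, was lowest at -1.66 to -1.47, both with 1 sign under all 6 scalings.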

How the data were processed

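RNA was extracted as total RNA and made into libraries with a TruSeq kit, per the labels' protocols. The authors deposited 1 table of RPKM values for 11450 genes in 40 libraries, and STAR, edgeR and mm10 are named, without versions, per the submitters' processing notes. For the annotation, the counting and its strand setting, nothing is given in the sources used here. Whole reads were recovered from the steps of the deposited values for 100% of genes, within 0.01 of a whole number (12123945 to 33596397 reads per library, median 577 per gene and library). No 2 columns were identical (highest Spearman correlation across genes 0.995).

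Tests were run on log2(RPKM + 1), which understates changes of low genes, for 11390 genes that reached 1 RPKM in 4 libraries. The tool was limma 3.58.1, with statmod 1.5.0 in R 4.3.3, a mean-variance trend and robust moderation. One model of 40 libraries had the mouse as a block, and each region had a model over days (15 residual degrees of freedom each). Benjamini-Hochberg values over all genes tested were called under 0.05, and errors of log2 differences are standard errors. Log2 ratios of RPKM were compared by sign-flip and exact permutation tests, also in R 4.3.3. The limma fits were tested on simulated data for injured against uninjured on day 7 and for the injured region from day 3 to day 7. Other steps were not tested in this way.

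Both regions of a mouse come from 1 heart, per the labels' design text. Deviations from the group means correlated at 0.148 to 0.54 within a mouse, and in 20 of 20 mice the injured library was closer to its own partner than to the other uninjured libraries of the day. Each library of a group is from another mouse.

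The proteasome genes, roles and lists were chosen with earlier results of these data known. Named were Psmb5 to Psmb10, Psme1 to Psme4, the genes with the highest and the lowest mean difference of each other role and list, genes called in opposite directions, and the 3 with the smallest p for a change over days. One gene that this rule names is not reported here. Scaling to equal sums of RPKM, voom on recovered reads and detection of Xist as a covariate were added after seeing the data. Gene positions are from GENCODE M21 on mm10, and promoters from RefSeq GRCm38.p6.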

Additional observations from a re-analysis of the deposited data

Results flagged for a closer look

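For the 10 genes Psmb5 to Psmb10 and Psme1 to Psme4, 6 of 100 groups of 4 libraries had 1 library far from the other 3 by Dixon's test (at its 95% critical value), where chance gives about 1 in 20. In the injured region Psmb10 was at 14.6 RPKM in mouse A11 of day 21, Psme2 at 12.5 in A4 of day 3, and Psmb6 at 26.2 in A3 of day 21. Psme3 was at 11.1 RPKM in mouse B1 and Psmb8 at 7.63 in mouse B3, both injured, day 42. The lone uninjured value was that of Psmb6 in mouse B9 of day 42, at 55.7 RPKM.

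The region difference changed over the days, by limma's F test, for 36 of the 41 proteasome genes (74.3% of all genes tested). Of the 2 genes called in opposite directions on different days with the deposited scaling, Psme3 had an adjusted p of 4.5e-07 and Psmd11 one of 5.35e-05 in that test.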

How the results depend on the processing

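Changes of pseudocount, filter, moderation and the fit of single days kept every count of called proteasome genes within 1.5 times. Quantile normalization gave 7 higher and 14 lower on day 3, 2 higher on day 7, 1 change in the uninjured region from day 7 to 14 and a mean of -0.24 over the days for Psmb9 (0.06 as deposited); equal medians gave 2 for that step. Total-read scaling gave 24, 8, 7, 8 and 11 higher and 3, 18, 22, 24 and 12 lower on the 5 days, 6, 1 and 5 uninjured changes from day 3 to 7, 7 to 14 and 21 to 42, and means over the days that turned positive for 15 of the 39 genes with a negative mean, among the named ones Psme2 (0.11), Psme3 (0.31), Psma3 (0.21), Psmc4 (0.041), Psmd11 (0.47), Psmd9 (0.24), Psmd5 (0.44), Psmd14 (0.15) and Psmd8 (0.20). Equal-sum scaling gave 19, 21, 18, 18 and 25 higher and 3, 4, 3, 4 and 1 lower, 6 genes whose difference changed over the days, 21 changed within the injured and 3 within the uninjured region, 14 injured changes from day 3 to 7, and 1, 1 and 0 uninjured changes from day 3 to 7, 7 to 14 and 21 to 42. Its means over the days turned positive for 27 of the 39, among the named ones Psmb5 (0.067), Psme2 (0.39), Psme3 (0.58), Psma3 (0.48), Psmb3 (0.11), Psmc4 (0.32), Psmd11 (0.73), Psmd9 (0.44), Psmd5 (0.67), Psmd14 (0.43) and Psmd8 (0.48). Xist detection as a covariate gave 10 uninjured changes from day 7 to 14. The cause of these shifts beyond the scaling factors themselves was not tested. Of all genes tested, 68.1% to 71.3% were higher and 16.7% to 20.7% lower in the injured region under total-read scaling. Equal-sum scaling had 66.3% to 79.9% of all genes higher and 10.6% to 19.3% lower. For changes over the days and between days, shares of all genes were counted with the deposited values only. Without the replicate block, which pairs the 2 regions of a mouse, and with the mouse as a random effect, 0 genes were higher on day 42 (1 with the block), and the pairing changed no other count by over 1.5 times. Leaving out 1 mouse of the days compared gave 0 to 1 higher on day 42, 5 to 11 injured changes from day 7 to 14 (5 without A11 of day 14), and 0 to 4, 1 to 7 and 5 to 11 uninjured changes from day 3 to 7, 7 to 14 and 21 to 42. The 3 log2 ratios kept sign and call under each alternative run. Depth limits Psmb9 most, with 87 to 306 reads per library.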
